A study of Mus musculus with 9 samples.

Results

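The potassium channel genes, named here by the symbol prefix Kcn, were followed in left ventricle RNA of delta-sarcoglycan knockout (KO) and wild-type (WT) mice given the thromboxane-prostanoid receptor antagonist ifetroban or plain water. Members were all rows of the deposited count tables whose symbol starts with Kcn, which gave 68 rows of 20634 genes. Of these, 57 were kept because they had a rounded count of at least 10 in at least 2 of the 9 libraries, a minimum that 15641 genes of the series passed. The kept members comprised 24 voltage-gated alpha subunits, 2 voltage-gated beta subunits, 10 inward rectifiers, 6 two-pore domain channels, 8 calcium- or sodium-activated channel subunits, 3 KChIP proteins and 2 KCNE proteins, together with 2 noncoding antisense transcripts, Kcnq1ot1 and Kcnd3os, which encode no channel. The 11 rows not kept were Kcnab3, Kcne1l, Kcne3, Kcng1, Kcnh3, Kcnh6, Kcnh7, Kcnip4, Kcnj16, Kcnrg and Kcns1, none with more than 13 counts in a library. The minimum was reached in both genotypes by 54 members, in KO libraries alone by Kcnq5 and Kcns3 and in WT libraries alone by Kcnk1. Just inside the minimum, with 2 libraries at or above it, lay Kcna3, Kcng4, Kcnj10, Kcnma1 and Kcnq5, whose highest counts were 11 to 21. Just outside, with 1 library, lay Kcnab3, Kcne1l and Kcne3, whose highest counts were 10 to 13.

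All mice were on a C57BL/6 background and were killed at 6 months of age. KO mice carry a deletion of Sgcd, which encodes a transmembrane member of the dystrophin-associated complex of muscle, and develop cardiomyopathy. Ifetroban was taken in drinking water from weaning at 25 mg/kg/day, vehicle mice drank normal water, and all groups had running wheels from time to time, which were meant to bring on the heart disease. The groups were KO ifetroban (3 libraries), KO vehicle (2), WT ifetroban (2) and WT vehicle (2). The labels do not say whether libraries came from separate animals, so p-values measure the spread between these libraries only. The labels of KO ifetroban replicate 1 conflict, because its title and source name give ifetroban while its treatment characteristic gives vehicle. It was analysed as ifetroban, and calls that change when it is moved to vehicle or left out are given with both values.

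Libraries held 21510263 to 30182955 counts, and 15549 genes, including 54 of the 57 members, had enough counts to be tested (Kcna3, Kcnc2 and Kcnq5 did not). A second split of the libraries cut across the design. Spearman's rho between transcript length and how far a gene stood from its average, over 11053 coding genes, was -0.59 to -0.46 in 4 libraries (KO ifetroban 1, both KO vehicle, WT vehicle 1) and 0.47 to 0.50 in the other 5, called negative- and positive-slope libraries below. Both KO vehicle libraries were negative and both WT ifetroban libraries positive. Sgcd itself, counted over the whole gene, had 7.30, 12.9 and 13.3 CPM (counts scaled to a common library size) in KO ifetroban, 9.64 and 8.63 in KO vehicle, 23.7 and 23.5 in WT ifetroban, and 8.36 and 20.9 in WT vehicle. One library labelled WT, vehicle replicate 1, lay in the KO range. The deleted exons are not named in the labels, so this does not check them. The Sgcd difference, -0.90 ± 0.25 (log2, SE), did not pass the threshold (edgeR quasi-likelihood test, adjusted p = 0.101). Calls that change without that library are given with both values. Markers of the ventricle were abundant, with a summed level of 6590 to 9319 CPM in KO and 7792 to 11011 CPM in WT libraries, and markers of the atrium summed to 1.71 to 5.50 CPM in KO and 1.13 to 6.16 CPM in WT libraries.

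Potassium channels let potassium leave the cell and so set the resting potential and end each action potential. In mouse ventricle, fast repolarization rests mainly on the transient outward current, built from Kcnd2 and Kcnd3 with the accessory protein KChIP encoded by Kcnip2, and on delayed rectifiers such as that of Kcna5. Inward rectifiers of Kcnj2 and Kcnj12 hold the resting potential, channels of Kcnj11 or Kcnj8 with a sulfonylurea receptor open when ATP falls, and Kcnj3 with Kcnj5 forms the channel that opens on acetylcholine. Reduced potassium currents and longer action potentials are well known from hypertrophied and failing hearts.

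The most abundant channel transcript was Kcnk3, which encodes an acid-sensitive two-pore leak channel. It ranked first per kilobase of transcript in 9 of 9 libraries, with a mean of 113 CPM per kb, and made up 31.7% of the summed CPM of the coding members. Next per kb were Kcng2, an electrically silent subunit that modifies other voltage-gated channels, at 53.2 CPM per kb, and Kcnip2 at 48.4 CPM per kb. Their order did not hold across libraries, since Kcng2 ranked second in 5 and Kcnip2 in 4. Then came Kcnh2, the rapid delayed rectifier, at 20.1 CPM per kb, Kcnj8 at 18.4, Kcnq1, the slow delayed rectifier, at 14.5, Kcnj5 at 14.5, Kcnj11 at 14.3, Kcnj3 at 12.5, Kcnj2 at 10.1 and Kcnj12 at 9.63 CPM per kb. Between Kcnh2 and Kcnj12 the ranges over libraries of neighbouring genes overlapped. Among the voltage-gated genes of repolarization, Kcna5 had 7.10, Kcnd2 4.98, Kcnd3 2.10 and Kcna4, a slow transient outward subunit, 0.271 CPM per kb. Not per length, 3 members averaged at least 100 CPM (Kcnk3 431, Kcnip2 151, Kcng2 150), 15 averaged 10 to 100 CPM, 23 averaged 1 to 10 CPM and 16 averaged under 1 CPM. The largest class shares of the summed CPM over the 9 libraries were those of two-pore channels, 28.3% to 37.6%, and of voltage-gated alpha subunits, 26.8% to 32.5%.

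**Figure D1:**
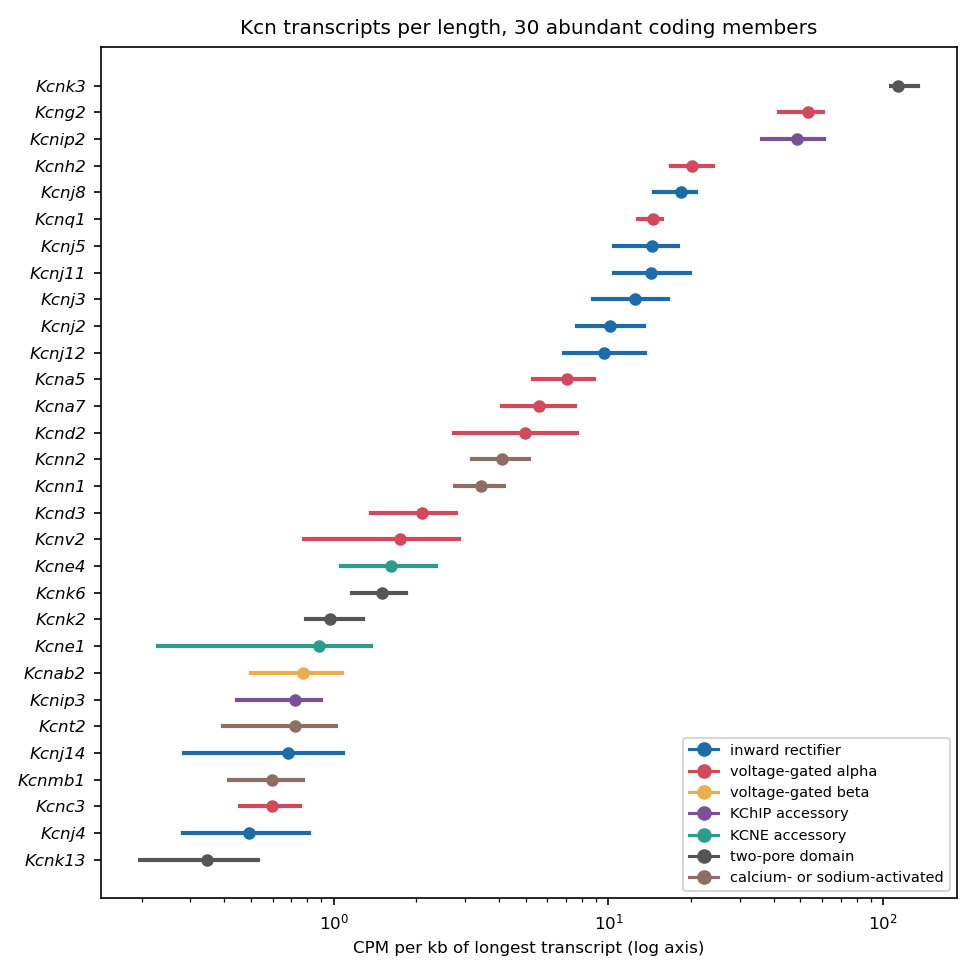
Level of 30 abundant coding Kcn genes per kilobase of longest transcript, on a logarithmic axis in CPM per kb, colored by class. Points are means over 9 libraries and bars run from the lowest to the highest library. Kcnk3 stands at 113 CPM per kb, followed by Kcng2 and Kcnip2 at 53.2 and 48.4 CPM per kb.

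The first question was which channel genes differed between KO and WT ventricle over both treatments. Kcnj3 (mm10 chromosome 2, 55435970 to 55598145, plus strand), a subunit of the acetylcholine-gated channel best known from the atria and nodes, had 46.8, 67.7 and 53.3 CPM in KO ifetroban and 45.9 and 49.8 CPM in KO vehicle, against 85.8 and 77.0 CPM in WT ifetroban and 77.8 and 83.4 CPM in WT vehicle. Every KO library lay below every WT library. Kcnj3 averaged 52.7 ± 8.9 CPM in KO (SD, n = 5) and 81.0 ± 4.3 CPM in WT libraries (SD, n = 4), and fell by 0.64 ± 0.11 on the log2 scale (SE, edgeR, adjusted p = 0.0217). In whole-tissue RNA, fewer cells of a type and less RNA per cell cannot be told apart. Kcne4 (chromosome 1, 78816758 to 78820028, plus strand), a single-pass accessory protein known to dampen voltage-gated channels such as Kcnq1, had 4.87, 4.16 and 6.26 CPM in KO ifetroban and 5.73 and 5.34 CPM in KO vehicle, against 2.83 and 3.00 CPM in WT ifetroban and 3.69 and 2.88 CPM in WT vehicle. Every KO library lay above every WT library, and Kcne4 rose by 0.78 ± 0.16 on the log2 scale (SE, edgeR, adjusted p = 0.0298). These were the 2 of 54 tested members past the adjusted p threshold of 0.05, where 2.33% of all genes tested passed, 2.06% higher and 0.27% lower in KO.

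The bases before the RefSeq starts of this pair of genes are shown because these were the genes past the threshold. What the bases do in these hearts was not measured. Each run is 250 bases long and ends at the base before the RefSeq gene start, in GRCm38.p6, plus strand, at chr1:78816661-78816910 for Kcne4 and chr2:55435720-55435969 for Kcnj3. Capitals mark matches on either strand to the TATA box motif TATAAA, the E-box motif CACGTG, the GATA motif AGATAA or the GC box motif CCGCCC.
Kcne4: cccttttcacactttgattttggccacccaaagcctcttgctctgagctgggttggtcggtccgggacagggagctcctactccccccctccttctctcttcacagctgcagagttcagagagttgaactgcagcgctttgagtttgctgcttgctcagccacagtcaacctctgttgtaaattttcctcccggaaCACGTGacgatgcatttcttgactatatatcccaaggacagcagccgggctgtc
Kcnj3: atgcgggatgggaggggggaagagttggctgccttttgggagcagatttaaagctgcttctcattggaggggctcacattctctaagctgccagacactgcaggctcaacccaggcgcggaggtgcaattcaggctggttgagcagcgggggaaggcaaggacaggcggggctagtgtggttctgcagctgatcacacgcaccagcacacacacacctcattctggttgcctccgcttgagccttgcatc
Kcne4 held 1 CACGTG, which 6.02% of 32851 mouse promoters of this length hold, and none of the other motifs. Kcnj3 held none of them, while 12.4% of promoters hold the TATA box motif, 9.99% the GATA motif and 32.7% the GC box motif. GC content was 53.2% for Kcne4 and 58.4% for Kcnj3, against a median of 52.4% over all promoters. The deposited annotation starts Kcne4 153 bases earlier than RefSeq, inside the run shown, so the marked CACGTG lies downstream of the deposited start. For Kcnj3 both start at the same base.

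The 2 calls rested on few libraries. Leaving out each library in turn, the Kcnj3 change ran from -0.73 to -0.58 with adjusted p of 0.0165 to 0.0960, and it did not pass without WT vehicle 2, either WT ifetroban library or either KO vehicle library. The Kcne4 change ran from 0.69 to 0.87 with adjusted p of 0.0287 to 0.115, and it did not pass without those 5 libraries or KO ifetroban 3. Without the library of conflicting labels Kcnj3 was at -0.59 (adjusted p = 0.0219) and Kcne4 at 0.80 (adjusted p = 0.0358). Among the negative-slope libraries, where KO vehicle can be set only against WT vehicle 1, whose Sgcd level lay in the KO range, Kcnj3 differed by -0.69 ± 0.11 (adjusted p = 0.0176) and Kcne4 by 0.59 ± 0.24 (adjusted p = 0.233). These errors come from the KO vehicle pair, and the lone WT library is assumed to vary like it. Among the positive-slope libraries, where KO ifetroban is set against WT ifetroban, the changes were -0.41 ± 0.12 (adjusted p = 0.265) and 0.85 ± 0.26 (adjusted p = 0.261), all by edgeR. Kcnj3 exons overlap those of the antisense gene Gm26794 on the opposite strand, which had 3 to 25 counts per library, and since no source used here says whether counting used the strand, their reads cannot be told apart.

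**Figure D2:**
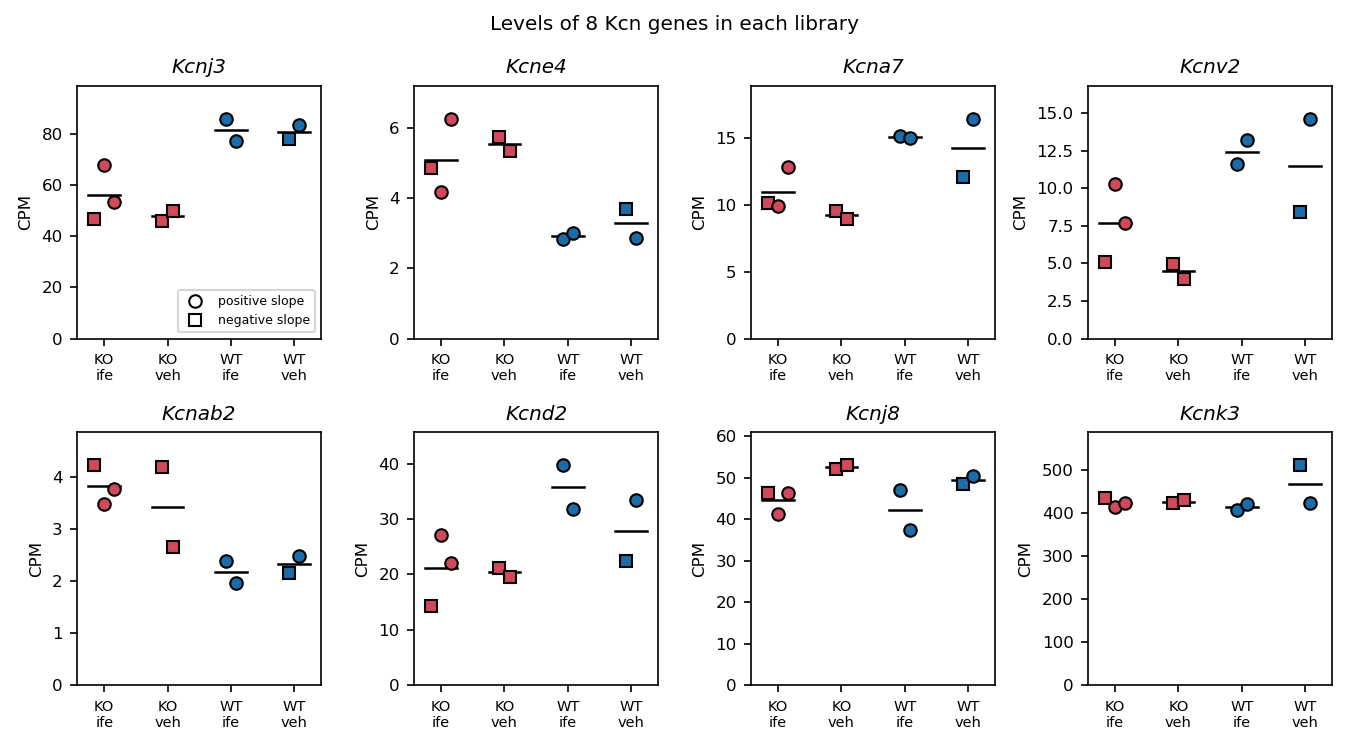
Levels in CPM of 8 Kcn genes in each library, by group, with KO groups in red, WT groups in blue and a line at each group mean. Squares mark negative-slope and circles positive-slope libraries. KO and WT libraries do not overlap for Kcnj3, Kcne4 and Kcnab2, while for Kcnk3 they cover about the same levels.

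With Kcnj3 and Kcne4 included, 17 of 54 members had an unadjusted p under 0.05, where 16.1% of all genes did. Of these 4 were higher in KO, where 9.31% of all genes were, and 13 lower, where 6.74% were. Over the 54 tested members the median log2 change was -0.15, against -0.02 over all genes tested, and 35 lay below 0, where 53.0% of all genes did. With the slope sets as a term 30 lay below 0, where 52.8% of all genes did, and the members' median was -0.08. KO and WT libraries did not overlap for 3 members that were higher in KO, Kcne4, Kcnab2 and Kcns3, where 4.62% of all genes were so, and for 2 that were lower, Kcnj3 and Kcnk1, where 2.38% were so. Kcns3 reached the count minimum through KO libraries alone and Kcnk1 through WT libraries alone, so their place in these counts follows in part from the way members were chosen. The summed CPM of the 55 coding members was 1206 to 1376 in KO libraries and 1393 to 1517 in WT libraries, without overlap. The lowest WT sum was that of WT vehicle 1, where Kcnk3 had 510 CPM, against 406 to 435 CPM in every other library. The gap between the genotypes thus depends on that gene in that library.

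Inward rectifiers lay mostly below WT, with 8 of 10 tested members below 0 and a median log2 change of -0.36, and 1 of them, Kcnj3, past the threshold. In the fit with the slope sets as a term 7 of 10 lay below 0, with a median of -0.22. Its partner Kcnj5 had 53.3, 83.7 and 63.7 CPM in KO ifetroban and 49.1 and 57.4 CPM in KO vehicle, against 72.8 and 75.7 CPM in WT ifetroban and 76.1 and 77.6 CPM in WT vehicle. Of its KO libraries 1 lay above all WT libraries, and the difference of -0.32 ± 0.14 did not pass (edgeR, adjusted p = 0.281). Kcnj2, the main background inward rectifier, averaged 49.3 ± 5.5 CPM in KO and 62.6 ± 8.7 CPM in WT libraries, a difference of -0.36 ± 0.11 (adjusted p = 0.147). For Kcnj12, its close relative, the difference was -0.44 ± 0.16 (adjusted p = 0.197). Without WT vehicle 1, the only negative-slope WT library, Kcnj12 passed, at -0.56 (adjusted p = 0.0406). With the slope sets as a term Kcnj12 was at -0.23 (edgeR, adjusted p = 0.329) and Kcnj2 at -0.24 (adjusted p = 0.182). Among the negative-slope libraries alone Kcnj12 was at 0.12 under vehicle, and among the positive-slope ones at -0.42 under ifetroban. Neither pore gene of the ATP-sensitive channel passed. Kcnj11, the cardiomyocyte form, averaged 40.1 ± 9.2 CPM in KO and 50.9 ± 12.6 CPM in WT libraries (log2 difference -0.37, adjusted p = 0.301), and Kcnj8, the vascular form, 47.8 ± 4.8 CPM in KO and 45.9 ± 5.8 CPM in WT libraries (0.08, adjusted p = 0.689).

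Among voltage-gated alpha subunits 16 of 21 tested members lay below 0, with a median log2 change of -0.18, and none passed. The slope sets as a term left 12 of 21 below 0, with a median of -0.03. Closest was Kcna7, a Shaker-type channel of muscle, with 10.1, 9.95 and 12.8 CPM in KO ifetroban and 9.53 and 8.91 CPM in KO vehicle, against 15.1 and 15.0 CPM in WT ifetroban and 12.1 and 16.4 CPM in WT vehicle. A single KO library, KO ifetroban 3, lay above the lowest WT library, and the difference was -0.54 ± 0.12 (edgeR, adjusted p = 0.0521). It passed with the library of conflicting labels as vehicle (-0.51, adjusted p = 0.0415), without KO ifetroban 3 (-0.61, adjusted p = 0.0360) and without WT vehicle 1 (-0.58, adjusted p = 0.0394). Kcnv2, a silent subunit that modifies other voltage-gated channels, had 5.10, 10.3 and 7.71 CPM in KO ifetroban and 4.97 and 3.98 CPM in KO vehicle, against 11.6 and 13.2 CPM in WT ifetroban and 8.41 and 14.6 CPM in WT vehicle, a difference of -0.98 ± 0.24 (adjusted p = 0.0623). With the slope sets as a term in the model its difference was smaller, at -0.63, and past the threshold (adjusted p = 0.0406). Kcnv2 also passed with the conflicting library as vehicle (-0.91, adjusted p = 0.0373), without KO ifetroban 2 (-1.16, adjusted p = 0.0385) and without WT vehicle 1 (-1.04, adjusted p = 0.0499). Kcnd2 of the transient outward current had 14.2, 27.1 and 22.0 CPM in KO ifetroban and 21.2 and 19.5 CPM in KO vehicle, against 39.7 and 31.8 CPM in WT ifetroban and 22.3 and 33.3 CPM in WT vehicle. The groups overlapped at the WT vehicle 1 library, and the difference was -0.62 ± 0.19 (adjusted p = 0.125), or -0.72 and past the threshold without that library (adjusted p = 0.0493). Among the negative-slope libraries alone it was -0.13 and among the positive-slope ones -0.52, and neither passed. Kcnd3 (-0.38, adjusted p = 0.386), Kcna5 (0.12, adjusted p = 0.750) and Kcna4 (-0.11, adjusted p = 0.880) differed by less relative to their error. The delayed rectifiers of the human long QT syndromes lay close to WT, Kcnq1 at 43.9 ± 3.1 CPM in KO and 44.1 ± 3.9 CPM in WT libraries and Kcnh2 at 80.8 ± 9.8 CPM in KO and 90.3 ± 7.6 CPM in WT libraries (log2 differences -0.01 and -0.18). Kcns3, a silent subunit, had 9, 11 and 7 counts in KO ifetroban and 12 and 10 in KO vehicle, against 5 and 3 counts in WT ifetroban and 1 and 0 in WT vehicle. It reached the count minimum through KO libraries alone, and did not pass (adjusted p = 0.136).

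Accessory subunits lay on both sides of WT. Both KCNE members lay above 0, Kcne4 past the threshold and Kcne1, the partner of Kcnq1, not (0.76 ± 0.37, adjusted p = 0.345), and the KCNE class summed to 7.83 to 9.64 CPM in KO and 3.55 to 7.18 CPM in WT libraries. The voltage-gated beta subunit Kcnab2, a cytoplasmic protein related to oxidoreductases, had 4.21, 3.46 and 3.75 CPM in KO ifetroban and 4.18 and 2.65 CPM in KO vehicle, against 2.38 and 1.96 CPM in WT ifetroban and 2.15 and 2.47 CPM in WT vehicle. Its KO libraries were all above the WT libraries, but the difference of 0.69 ± 0.18 did not pass (edgeR, adjusted p = 0.0825). It passed without KO vehicle 2 (0.82, adjusted p = 0.0460) and by DESeq2 (adjusted p = 0.0268). The other beta subunit, Kcnab1, differed by 0.15 (adjusted p = 0.844). All 3 tested KChIP members lay below 0 and none passed. Kcnip2 had 113, 129 and 130 CPM in KO ifetroban and 129 and 174 CPM in KO vehicle, against 183 and 183 CPM in WT ifetroban and 125 and 189 CPM in WT vehicle (-0.33 ± 0.15, adjusted p = 0.319). The low value in WT was again that of the WT vehicle 1 library. Kcnip3, also known as a calcium-dependent transcriptional repressor, averaged 1.89 CPM in KO and 2.10 CPM in WT libraries, and Kcnip1 0.262 CPM in KO and 0.413 CPM in WT libraries.

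Two-pore channels were split, with 3 of 6 tested members below 0 and none past the threshold. Kcnk3 had 435, 413 and 422 CPM in KO ifetroban and 424 and 429 CPM in KO vehicle, against 406 and 421 CPM in WT ifetroban and 510 and 423 CPM in WT vehicle. Apart from the WT vehicle 1 library all libraries lay between 406 and 435 CPM, and the difference was -0.04 ± 0.08 (adjusted p = 0.853). Kcnk2, a channel opened by stretch and lipids, differed by -0.11 (adjusted p = 0.800) and Kcnk6 by 0.18 (adjusted p = 0.563). Kcnk1 had 8, 3 and 7 counts in KO ifetroban and 8 and 7 in KO vehicle, against 12 and 15 counts in WT ifetroban and 15 and 11 in WT vehicle, and reached the count minimum through WT libraries alone. Its difference did not pass (adjusted p = 0.207). Of the calcium- or sodium-activated channels 4 of 8 lay below 0 and none passed. The small-conductance channel Kcnn2 averaged 13.7 ± 2.0 CPM in KO and 16.8 ± 2.3 CPM in WT libraries (-0.31, adjusted p = 0.245), Kcnn1 13.0 ± 1.1 CPM in KO and 15.0 ± 1.5 CPM in WT libraries (-0.18, adjusted p = 0.392), and the sodium-activated Kcnt2 4.43 ± 1.44 CPM in KO and 3.87 ± 0.43 CPM in WT libraries (0.20, adjusted p = 0.723). The antisense transcripts Kcnq1ot1, which takes part in imprinting at the Kcnq1 locus, and Kcnd3os differed by -0.23 (adjusted p = 0.534) and 0.03 (adjusted p = 0.985). Each overlaps exons of its host gene on the opposite strand, so their reads and those of Kcnq1 and Kcnd3 cannot be told apart without the strand.

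**Figure D3:**
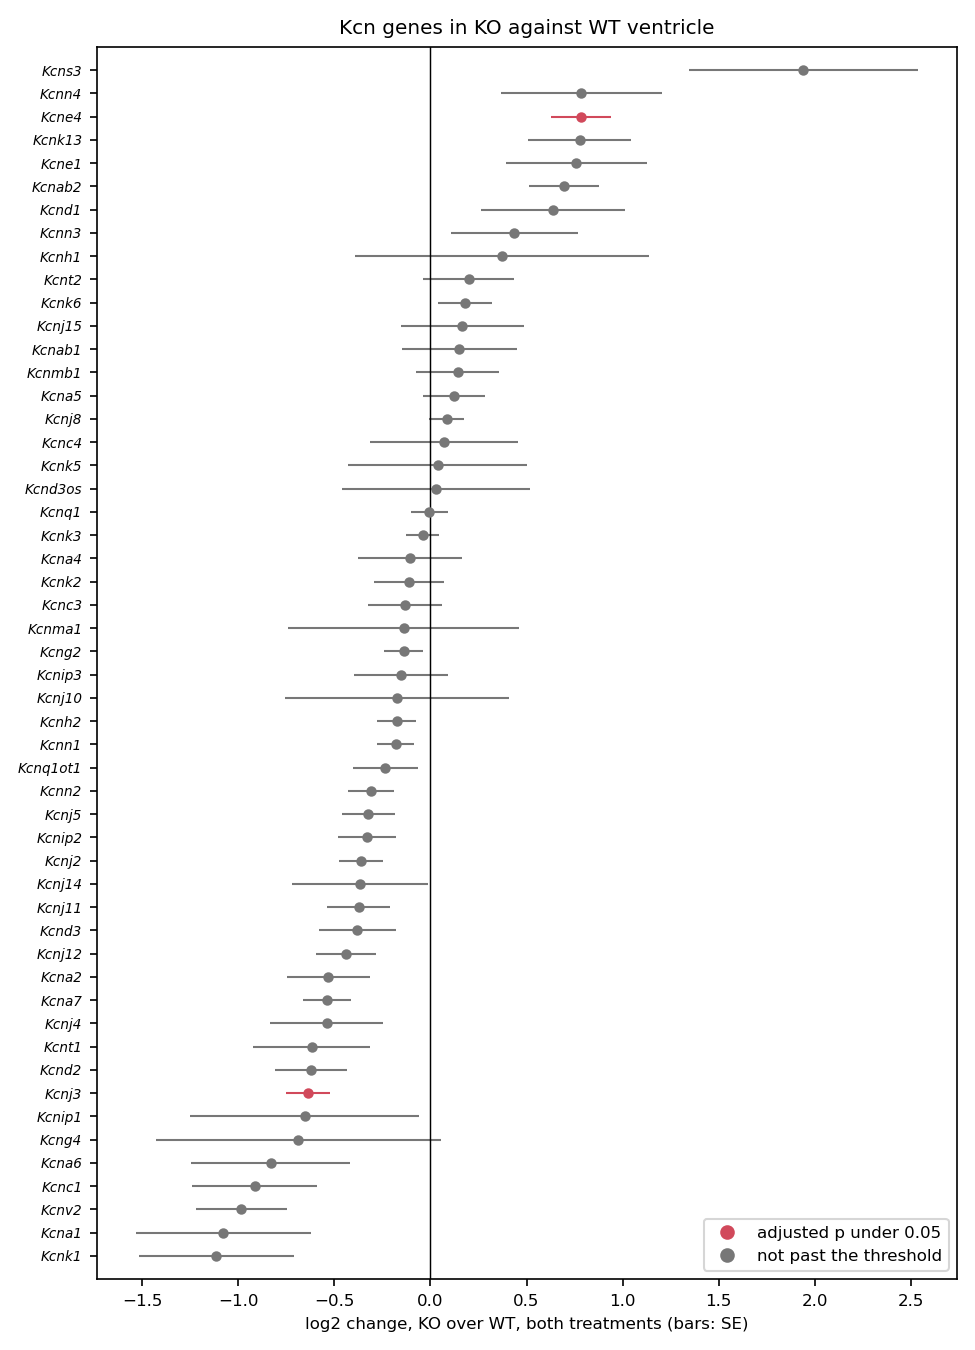
Log2 change in KO over WT ventricle over both treatments for 52 of the 54 tested Kcn genes, with bars of 1 SE on each side, sorted by change. The genes past an adjusted p of 0.05, in red, are Kcne4 at 0.78 and Kcnj3 at -0.64.

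Cell markers moved with genotype in the same libraries. Macrophage markers summed to 477 to 536 CPM in KO and 222 to 311 CPM in WT libraries. At the same threshold 7 of 8 were higher in KO, where 2.06% of all genes were. Fibroblast markers summed to 1152 to 1684 CPM in KO and 834 to 999 CPM in WT libraries, with 3 of 8 higher. Cardiomyocyte markers summed to 30802 to 39570 CPM in KO and 37272 to 43785 CPM in WT libraries, with 0 of 8 past the threshold and a median log2 change of -0.14. Of the adipocyte markers 1 of 2 tested was higher. Their sums, 354 to 442 CPM in KO and 303 to 509 CPM in WT libraries, were nearly all Fabp4. Fabp4 had 352 to 441 CPM in KO and 302 to 509 CPM in WT libraries. No other adipocyte marker exceeded 1.67 CPM in any library, and Adipoq was at 0 in all WT libraries. The sums therefore say little about adipocytes. No marker passed for endothelium (745 to 926 CPM in KO and 724 to 970 CPM in WT libraries), smooth muscle and pericytes (977 to 1249 CPM in KO and 919 to 1212 CPM in WT libraries) or conduction cells (24.8 to 42.4 CPM in KO and 32.8 to 37.6 CPM in WT libraries). The same held for nerve (15.7 to 22.4 CPM in KO and 13.5 to 15.6 CPM in WT libraries) and lymphocytes (2.67 to 3.94 CPM in KO and 2.10 to 3.60 CPM in WT libraries). No marker measured was at 0 in every library. The part of these markers in the channel gene results was not tested.

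The genotype difference was next read within each treatment, between groups that share no library. The spread was estimated over all 9 libraries in both comparisons, so their p-values are not independent. Under vehicle, 0 of 54 members passed, where 0.0515% of all genes did, and 8 had an unadjusted p under 0.05, where 7.9% did. Of these 2 were higher in KO, where 5.21% of all genes were, and 6 lower, where 2.69% were, and 38 members lay below 0, where 52.9% did. With the slope sets as a term 30 lay below 0, where 49.6% of all genes did, and the members' median was -0.06. By DESeq2 2 members passed, Kcnj3 and Kcnv2, where 0.926% of all genes did. The edgeR differences were -0.75 ± 0.18 for Kcnj3 (adjusted p = 0.246), -1.37 ± 0.34 for Kcnv2 (adjusted p = 0.292), -0.63 ± 0.19 for Kcna7 (adjusted p = 0.408), 0.76 ± 0.24 for Kcne4 (adjusted p = 0.418) and 0.56 ± 0.27 for Kcnab2 (adjusted p = 0.697). Leaving out 1 library, Kcnab2 was at 0.19 without KO vehicle 1 and 0.85 without KO vehicle 2, and without WT vehicle 2 Kcnv2 was at -0.91 and Kcna7 at -0.39. Kcns3, which was kept through KO libraries alone, had 12 and 10 counts in KO vehicle against 1 and 0 counts in WT vehicle and did not pass (adjusted p = 0.238). KO vehicle lay below WT vehicle without overlap for 17 of 54 members, where 17.6% of all genes did, and above for 9, where 18.3% did, with a median log2 change of -0.23 over the tested members and -0.02 over all genes. Counting the library of conflicting labels as vehicle, Kcnj3 passed under vehicle (-0.76, adjusted p = 0.0460).

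Under ifetroban, 0 of 54 members passed, where 0.0386% of all genes did, 0.0257% higher and 0.0129% lower in KO, and 13 had an unadjusted p under 0.05, where 9.36% did. Of these 5 were higher in KO, where 6.24% of all genes were, and 8 lower, where 3.12% were, and 33 members lay below 0, where 52.2% did. Once the slope sets were a term 27 lay below 0, where 53.5% of all genes did. By DESeq2 0 passed, where 1.87% of all genes did. The differences with the smallest p were 0.80 ± 0.23 for Kcne4 (adjusted p = 0.240), -0.54 ± 0.16 for Kcnj3 (adjusted p = 0.265), 0.81 ± 0.25 for Kcnab2 (adjusted p = 0.306), 1.5 ± 0.47 for Kcnn4, an intermediate-conductance calcium-activated channel best known from blood cells (adjusted p = 0.306), -1.25 ± 0.42 for Kcnc1, a fast-spiking neuronal type of channel (adjusted p = 0.361), and -0.56 ± 0.19 for Kcnip2 (adjusted p = 0.361), all by edgeR. Kcnn4 had 1.73, 0.858 and 1.13 CPM in KO ifetroban, all above the 0.36 and 0.50 CPM in WT ifetroban. The direction was the same under both treatments for 35 of 54 members, 26 lower and 9 higher in KO, or 64.8%, where 68.1% of all genes kept their direction.

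Ifetroban was then compared with vehicle. In KO ventricle 0 of 54 members passed, where 0.0% of all genes did, and 3 had an unadjusted p under 0.05, where 3.96% did, 2.26% higher and 1.69% lower. With ifetroban 21 members lay below 0, where 48.8% of all genes did. All 3 were higher with ifetroban, among them Kcnn4 (1.27 ± 0.46) and Kcnv2 (0.79 ± 0.32), both with an edgeR adjusted p of 0.862. With the conflicting library as vehicle the Kcnn4 difference was 0.14, and with the slope sets as a term the Kcnv2 difference was 0.20. Kcnn4 had 1.73, 0.858 and 1.13 CPM in KO ifetroban, against 0.531 and 0.482 CPM in KO vehicle, and Kcnv2 had 5.10, 10.3 and 7.71 CPM in KO ifetroban, against 4.97 and 3.98 CPM in KO vehicle. The highest Kcnn4 value was that of KO ifetroban 1, the library whose labels conflict. The smallest p among members lower with ifetroban were those of Kcnj8 (-0.24), Kcnt1, a sodium-activated channel (-0.74), and Kcnk2 (-0.39), with the same adjusted p. Without KO vehicle 2 Kcnk2 was at -0.10 and Kcnt1 at -0.49, without KO vehicle 1 Kcnk2 was at -0.62, and with the conflicting library as vehicle Kcnt1 was at -0.48.

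In WT ventricle 0 of 54 members passed, where 0.0% of all genes did, and 2 had an unadjusted p under 0.05, where 2.25% did. These were Kcns3, higher with ifetroban as 1.03% of all genes were, and Kcne1, lower as 1.22% were, and 29 members lay below 0, where 48.1% of all genes did. Kcns3 had 5 and 3 counts in WT ifetroban against 1 and 0 in WT vehicle. All lie under the count minimum, which it reached through KO libraries alone. Leaving out single libraries, its change ran from 1.58 to 5.08. Kcne1 had 0.727 and 1.75 CPM in WT ifetroban, against 3.49 and 2.79 CPM in WT vehicle (-1.34 ± 0.51, edgeR, adjusted p = 0.881), or -0.84 without WT ifetroban 1 and -2.10 without WT ifetroban 2. Kcnj12 had 31.6 and 33.4 CPM in WT ifetroban, against 17.5 and 27.9 CPM in WT vehicle (0.51 ± 0.24), and the lower of the vehicle values was that of the negative-slope library. Without that library, WT vehicle 1, the Kcnj12 difference was 0.20, and without WT vehicle 2 it was 0.89. Kcnq1ot1 (-0.45), Kcnj8 (-0.23) and Kcnma1, the large-conductance calcium-activated channel (1.71, from at most 14 counts per library), completed the members with the smallest p in either direction. Without WT ifetroban 2 Kcnj8 was at -0.08 and Kcnq1ot1 at -0.75, and without WT ifetroban 1 Kcnj8 was at -0.41 and Kcnq1ot1 at -0.20.

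Over both genotypes 0 of 54 members passed, by edgeR or DESeq2, where 0.0% of all genes did by edgeR and 0.0129% by DESeq2. By edgeR 2 had an unadjusted p under 0.05, where 7.96% of all genes did, Kcnj8 lower as 2.84% were and Kcnj11 higher as 5.13% were. Kcnj8, the pore of the vascular ATP-sensitive channel, had 46.4, 41.3 and 46.3 CPM in KO ifetroban against 52.2 and 53.0 CPM in KO vehicle. In WT ifetroban it had 47.0 and 37.4 CPM against 48.6 and 50.5 CPM in WT vehicle. Every ifetroban library lay below every vehicle library, which held for 1 member and for 0.502% of all genes, and the change was -0.24 ± 0.09 (adjusted p = 0.545). If the library of conflicting labels is counted as vehicle the groups overlap, since its 46.4 CPM lies below the 47.0 CPM of WT ifetroban 1, and the change is -0.22 (adjusted p = 0.135). Kcnj11 was higher by 0.38 ± 0.17 and Kcnj12 by 0.33 ± 0.16 with ifetroban (adjusted p = 0.545 for each), with overlapping groups, and both were among the members that separated the slope sets. With the slope sets as a term Kcnj11 and Kcnj12 were both at 0.04. Kcnv2 differed by 0.46, or by -0.05 with that term. Without WT vehicle 1 Kcnj12 was at 0.19, and Kcnv2 was at 0.29 without KO ifetroban 2 and 0.70 without WT vehicle 2. Members lower with ifetroban included Kcne1 (-0.65, adjusted p = 0.545, or -0.38 without WT ifetroban 1) and Kcnt1 (-0.50, adjusted p = 0.547).

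Whether the ifetroban difference depended on genotype was tested as the difference in KO minus that in WT. No member passed (0 of 54, where 0.0% of all genes did, by edgeR and also by DESeq2), and 3 had an unadjusted p under 0.05, where 1.92% of all genes did. They were Kcnma1 (-2.63 ± 1.00) and Kcns3 (-2.89 ± 1.19), both with at most 14 counts per library, and Kcnn4 (1.62 ± 0.71). Kcnn4 was at 0.50 with the conflicting library as vehicle and at 1.01 without WT vehicle 2. The next members in either direction were Kcnk6 (0.51 ± 0.25), Kcnq1 (0.35 ± 0.17) and Kcnip2 (-0.51 ± 0.28), and every member had an adjusted p of 1.00. Kcnip2 was at -0.23 without WT vehicle 1, -0.84 without WT vehicle 2, -0.28 without KO vehicle 2 and -0.32 with the conflicting library as vehicle. For the pair past the genotype threshold the values were 0.21 ± 0.24 for Kcnj3 and 0.05 ± 0.33 for Kcne4.

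**Figure D4:**
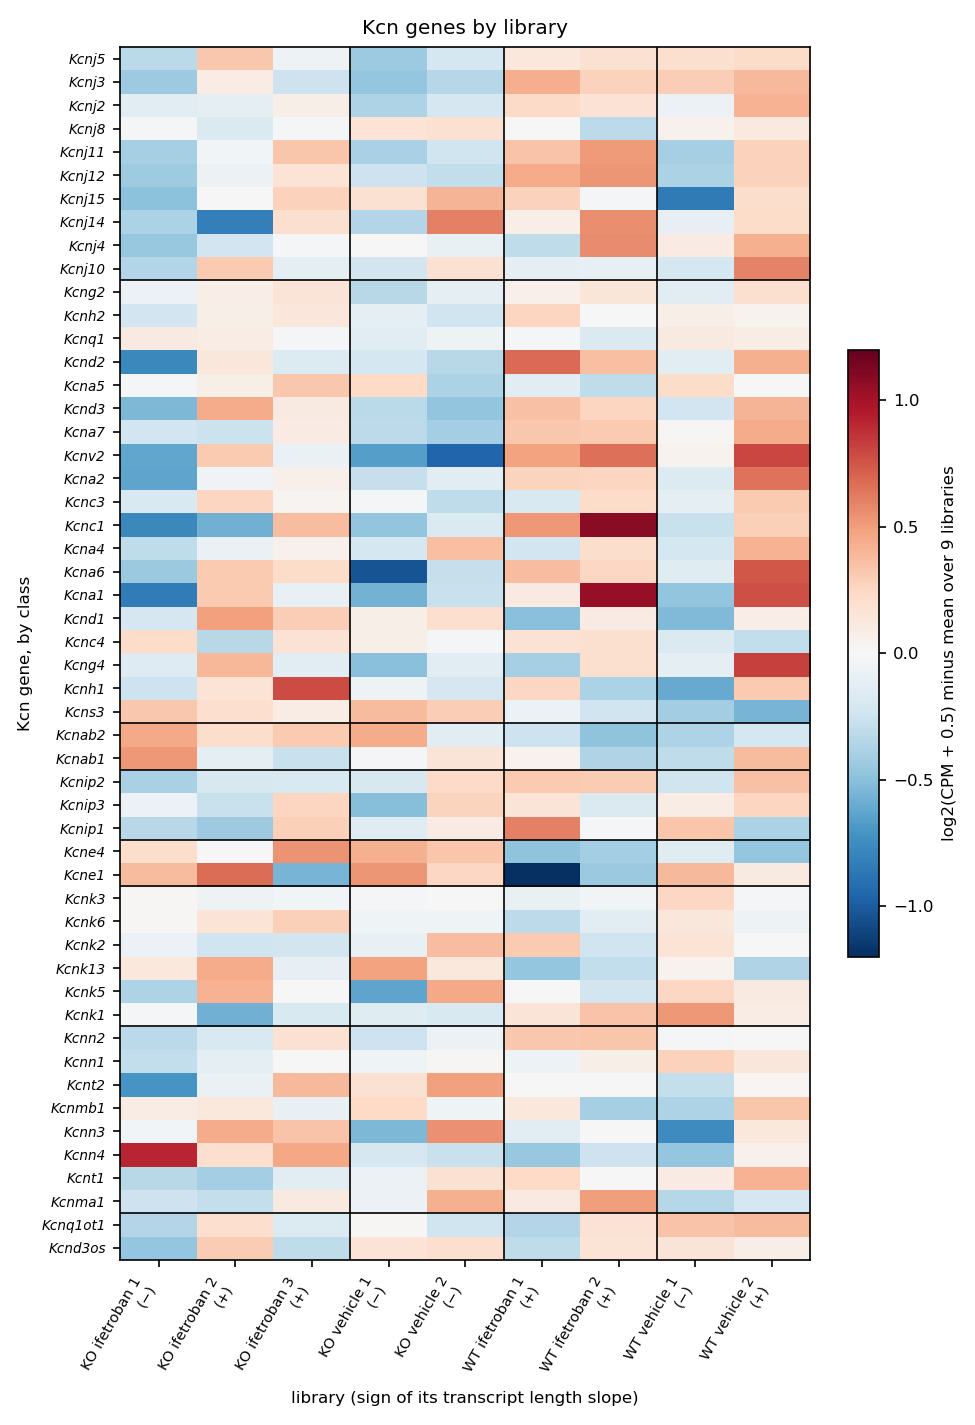
Level of 52 of the 54 tested Kcn genes in each library as log2(CPM + 0.5) minus the gene's mean over 9 libraries, with genes in rows by class and libraries in columns by group, marked with the sign of their length slope. Kcnj3 is lower and Kcne4 higher in each of the 5 KO libraries than in any WT library, though not every KO library stands clear of the mean. Kcnd3, Kcnj11 and Kcnj12 are low in the negative-slope libraries of either genotype.

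The slope sets separated several members. Of these 8 were higher in every positive-slope library than in any negative-slope one, among them Kcng2, Kcnj12, Kcnj11, Kcnd3, Kcna2, Kcna6 and Kcna1, where 15.9% of all genes were so, and 1 was lower, Kcnk3, where 12.1% were so. Because the slopes were read from these libraries, the counts describe the split and do not test it. Kcnd3, with a transcript of 7169 bases, had 15.7 to 20.0 CPM in positive-slope and 9.83 to 12.3 CPM in negative-slope libraries (log2 difference 0.78 with the groups in the model), and Kcnk3 had 406 to 423 CPM in positive-slope and 424 to 510 CPM in negative-slope libraries (-0.15). Non-members with very long transcripts differed in the same way, with Ttn at 6212 to 7429 CPM in positive-slope and 3281 to 4283 CPM in negative-slope libraries. Ttn and Ryr2 did not pass for genotype over both treatments (-0.53, adjusted p = 0.259, and -0.50, adjusted p = 0.336). Over the 54 tested members the median difference between the sets was 0.29, against 0.02 over all genes. Their transcripts were longer than average, with a median of 4039 bases over the 52 coding members tested and 3458 bases over all coding genes tested. Across these 52 members, which share the same 9 libraries, Spearman's rho between transcript length and the difference was 0.58. Negative-slope libraries made up 1 of 3 in KO ifetroban, 2 of 2 in KO vehicle, 0 of 2 in WT ifetroban and 1 of 2 in WT vehicle, so the sets were unbalanced in every comparison of genotype or ifetroban. With the slope sets as a term Kcnj3 was at -0.53 (adjusted p = 0.0136) and Kcne4 at 0.75 (adjusted p = 0.0402) over both treatments.

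**Figure D5:**
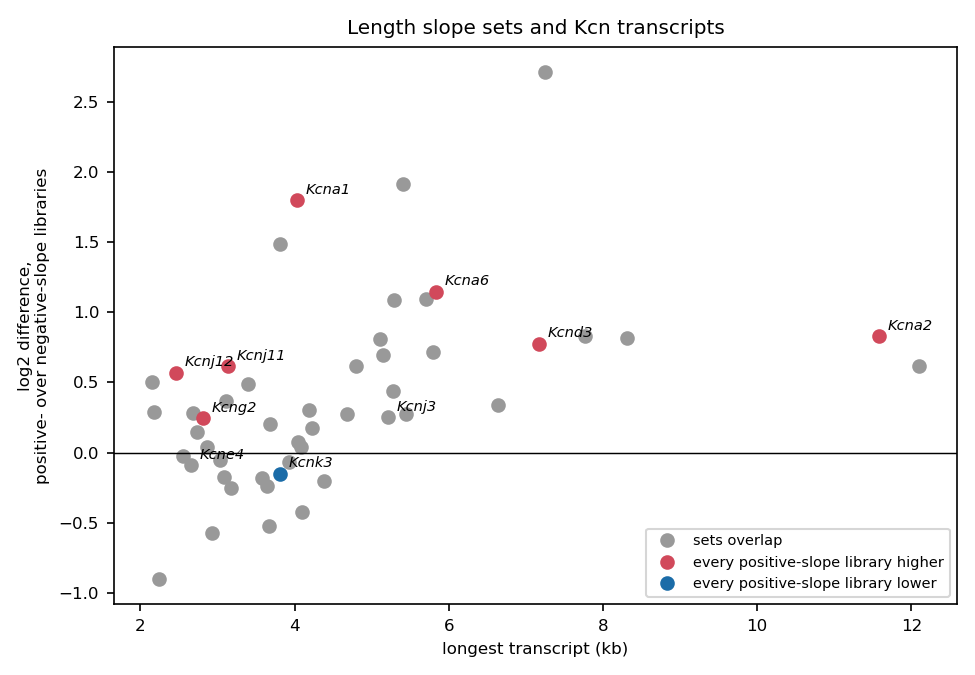
Log2 difference between positive- and negative-slope libraries, with the groups in the model, against the length of the longest transcript in kilobases for 50 of the 52 coding Kcn genes tested. Red points are genes higher, and the blue point the gene lower, in every positive-slope library than in any negative-slope one. Kcnd3 stands at 0.78 and Kcnk3 at -0.15.

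The kept members on chromosome 11, which carries Sgcd, were Kcnip1, Kcnmb1, Kcnj12 and Kcnj2, at 12.9, 12.9, 13.0 and 63.1 Mb from Sgcd, and none passed for genotype over both treatments.

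Genes that work with these channels were read from a pair of lists. Of 25 partners of potassium channels 22 were in the tables and 21 tested, and 0 passed in any of the 7 comparisons, with a median log2 change of -0.06 in KO over WT. Their smallest adjusted p over both treatments was that of Abcc8, a sulfonylurea receptor of the ATP-sensitive channel, with 19.9, 25.8 and 26.9 CPM in KO ifetroban and 18.8 and 21.2 CPM in KO vehicle, against 30.2 and 30.5 CPM in WT ifetroban and 22.9 and 31.8 CPM in WT vehicle (-0.38 ± 0.12, edgeR, adjusted p = 0.159). The adaptor Ank2, which anchors ion channels and transporters, stood at -0.49 ± 0.20 (adjusted p = 0.274). Its levels followed the slope sets, with 139 to 197 CPM in positive-slope and 85.1 to 112 CPM in negative-slope libraries. Cav3, the muscle caveolin of the surface membrane, differed by 0.63 ± 0.20 under ifetroban (adjusted p = 0.322), with 68.8, 55.5 and 49.3 CPM in KO ifetroban, against 37.7 and 37.1 CPM in WT ifetroban. Over all groups its levels overlapped, at 45.3 to 68.8 CPM in KO and 37.1 to 61.7 CPM in WT libraries. Irx3, Irx4 and Irx5, transcription factors that shape the transient outward current, differed by 0.11, 0.07 and 0.21, none past the threshold. Of 14 potassium transport genes 1 was higher in KO and 0 lower over both treatments, where 2.06% and 0.27% of all genes were. This was Fxyd5, a regulator of the sodium pump, with 25.7, 16.9 and 13.0 CPM in KO ifetroban and 18.8 and 16.5 CPM in KO vehicle, against 10.4 and 7.12 CPM in WT ifetroban and 9.95 and 6.16 CPM in WT vehicle (1.10 ± 0.22, edgeR, adjusted p = 0.0286).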

How the data were processed

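Members and gene lists were chosen with earlier results of these data known. The deposited values were expected counts per gene in 9 libraries, 28.2% of them not whole numbers and not scaled between libraries. Tools named in the submitters' processing notes were STAR, Partek and bcl2fastq, with mm10 as the build and no versions. Neither the counting rule nor its use of strand is given in those sources. Coordinates are those deposited with 1 subtracted from the end, which then matched GENCODE M21 for 15571 of 19704 shared symbols, against 70 before. Transcript lengths are those of the longest GENCODE M21 transcript, and promoter sequences are from RefSeq, which held 42 of the 57 kept members.

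Counts were rounded, filtered with filterByExpr on group (minimum count 10) and scaled with TMM, and CPM are TMM-scaled. Depth was 21510263 to 30182955 counts per library, with a common biological variation coefficient of 0.176. The robust quasi-likelihood test of edgeR 4.0.16 in R 4.3.3 was applied to all 15549 genes, with 4 group means for genotype within a treatment, ifetroban within a genotype and their interaction, and with additive genotype and treatment terms for each factor over the other. Benjamini-Hochberg adjustment ran over all genes, with a threshold of 0.05, and SE is the log2 change divided by the square root of F. The test was tried first on simulated data with known changes. Those data had the same spread for every gene and no slope sets, so they do not show how the test performs on these libraries.

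Alternatives were DESeq2 1.42.0 (Wald test, and its size factors), limma-voom (limma 3.58.1), no low-count filter, the member count minimum for all genes, a fit of the compared groups alone, a block for replicate number, the conflicting library as vehicle, the slope sets as a term, each slope set alone, and each library left out. Named were members past the threshold, the 3 smallest p in each direction of each comparison, the 3 most abundant of each class, 16 cardiac channel genes, and of the partner and transport lists those past the threshold or with the 2 smallest p. A few genes that this rule names are not reported here. The other genes named from the lists and the non-overlapping members were named after their values were seen.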

Additional observations from a re-analysis of the deposited data

How the results depend on the processing

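Results were recomputed under every alternative, 42 changes of single genes and 7 counts of members past the threshold. Over single genes 731 values kept direction and side of the threshold, 19 moved past it, 11 fell short of it and 1 reversed, Kcnv2 for ifetroban over both genotypes, at 0.46 and at -0.052 with the slope sets as a term. Of the counts 114 stayed within 1.5 times and 13 did not. For genotype over both treatments the 2 calls became 6 with DESeq2, 4 with the conflicting library as vehicle, and 0 to 6 when single libraries were left out (6 without WT vehicle 1, 1 without KO vehicle 2, 0 without WT vehicle 2, either WT ifetroban library or KO vehicle 1). The 6 by DESeq2 were Kcnj3, Kcne4, Kcna7, Kcnv2, Kcnab2 and Kcnd2. Kcnj3 passed in 13 and Kcne4 in 12 of 18 settings. Kcna7 and Kcnv2 passed in 6 settings each, Kcnab2 and Kcnd2 in 2 each and Kcnj12 in 1. For genotype under vehicle the 0 calls became 2 with DESeq2 and 1 with the conflicting library as vehicle. Over all 15549 genes tested, DESeq2 called 896 (5.76%) for genotype over both treatments, against 363 (2.33%) by edgeR. Under vehicle it called 144 (0.926%), against 8 (0.0515%). With the conflicting library as vehicle 530 genes passed over both treatments and 28 under vehicle. Over both treatments 487 passed without WT vehicle 1 and 237 without KO vehicle 2. Without WT vehicle 2, either WT ifetroban library or KO vehicle 1, 52 to 186 passed. Causes of these changes were not tested.

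Same-numbered replicates correlated between -0.103 and 0.648 in their deviations from group means. In groups of 2 these deviations mirror each other, and the pair at 0.648, WT vehicle 1 and KO ifetroban 1, were both negative-slope libraries. The correlations therefore cannot show whether the numbers pair libraries, and the numbers were not taken to do so. With replicate number as a block, 4 members passed for genotype over both treatments (Kcnj3, Kcne4, Kcna7 and Kcnv2), where 550 of 15549 genes did. For genotype under ifetroban 1 member passed (Kcnc1, -1.83), where 172 of 15549 genes did.

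With 2 or 3 libraries a group, changes of members under 1 CPM rest on a few counts per library, and single-library values decide most calls.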
